A study of Mus musculus with 10 samples.

Results

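The miR-30 family was measured in mature mouse sperm as 6 miRNA hairpins, mmu-mir-30a, mmu-mir-30b, mmu-mir-30c-1, mmu-mir-30c-2, mmu-mir-30d and mmu-mir-30e, written below without the species prefix. They were chosen by name, as the hairpins usually counted in the family, out of 1136 miRNA hairpins and 1470 non-overlapping small RNA features listed in at least 1 library. All 6 were listed in all 10 libraries. Small RNA was sequenced from sperm of male C57BL/6J mice, 5 samples from the HFD-F0 group, on a high-fat diet with 42% of its kcal from fat, and 5 from the CD-F0 group, on a control diet with 10%. Both diets started at 4 weeks of age, the labels name no altered allele in either group, and sperm were taken from the tail of the epididymis and the vas deferens. The labels do not say whether a sample is the sperm of 1 mouse or of several, and the p-values measure the spread between these samples, which may be technical. The CD-F0 libraries held 30431401 to 31586854 clean reads and the HFD-F0 libraries 29558751 to 32178088, of which the family took 69454 to 142415. Levels are given as RPM, the reads of a hairpin per 1000000 clean reads.

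A miRNA is cut from a hairpin as a short RNA that guides Argonaute proteins to messenger RNAs, mainly through the bases just after its 5′ end, called the seed. The miR-30 family shares its seed among all members and is known from work on kidney, heart, epithelia and fat cells. Behind the shared start its members fall into 2 types, miR-30a, miR-30d and miR-30e on the one side and miR-30b and miR-30c on the other. Sperm gain part of their small RNA in the epididymis, from vesicles shed by its epithelium.

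The 5′ arms of the family are shown first, because all of the members share a seed and the 2 types differ only behind it. Mature sequences were matched for 4 of the 6 hairpins in the RefSeq table of the mouse (GRCm38.p6), 22 or 23 nt long, and the seed, bases 2 to 8, is in capitals:
miR-30a-5p: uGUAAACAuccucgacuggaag
miR-30e-5p: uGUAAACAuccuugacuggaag
miR-30c-5p: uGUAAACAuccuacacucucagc
miR-384-5p: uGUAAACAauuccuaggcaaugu
The first 12 bases are the same in the 3 miR-30 sequences. With positions counted from 1 at the 5′ end and the base of miR-30a-5p first, miR-30e-5p differs by C13U, and miR-30c-5p by C13A, G14C, G18C, G19U and A20C. The hairpins mir-30c-1 and mir-30c-2 encode the same 5′ arm, so their reads from it cannot be told apart. Of 1738 mature sequences in the table, 5 carry this seed, and these hold 4 distinct sequences. The one outside the family is miR-384-5p.

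The 3′ arms of the same hairpins are shown because they are what tells mir-30c-1 from mir-30c-2, again with bases 2 to 8 in capitals:
miR-30a-3p: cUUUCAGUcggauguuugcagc
miR-30e-3p: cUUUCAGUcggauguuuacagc
miR-30c-1-3p: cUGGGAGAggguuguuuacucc
miR-30c-2-3p: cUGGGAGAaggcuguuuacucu
Among these 4, the 3′ arms have 1 seed in mir-30a and mir-30e and another in both mir-30c hairpins.

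The 6 hairpins lie in 3 genomic clusters (GRCm38, GENCODE M21 genes), and each cluster pairs 1 hairpin of either type. On the plus strand of chromosome 1, mir-30a (chr1:23272269-23272339) overlaps no annotated host gene, and mir-30c-2 (chr1:23291701-23291784) lies 19361 bases further on, over an exon of the long non-coding RNA Gm27028. On the minus strand of chromosome 4, mir-30c-1 (chr4:120769534-120769622) and mir-30e (chr4:120772606-120772697) lie 2983 bases apart in introns of Nfyc, which encodes a subunit of the transcription factor NF-Y. On the minus strand of chromosome 15, mir-30b (chr15:68337415-68337510) and mir-30d (chr15:68341208-68341289) lie 3697 bases apart and overlap exons, of the processed transcript Gm26621 for mir-30b, and of the long non-coding RNA Gm20732 and of Gm37296, whose type is not settled in the annotation, for mir-30d.

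In sperm the family was of middling to high abundance. Its summed level was 2822 ± 597 RPM under the control diet and 3792 ± 446 RPM under the high-fat diet (SD, n = 5 each), or 1.67% ± 0.353 and 2.05% ± 0.140 of all miRNA reads. Among the 1136 miRNA hairpins ordered by mean RPM over the 10 libraries, mmu-mir-30b ranked 48, mmu-mir-30a 57, mmu-mir-30d 65, mmu-mir-30e 83, mmu-mir-30c-2 90 and mmu-mir-30c-1 93. The most abundant miRNA, mir-143, known from smooth muscle, had a mean of 26257 RPM, and mir-21a, mir-449a, let-7g and mir-191 followed. No member is alone at its level. For example, mir-100 (945 RPM) and mir-145a (940.1 RPM) stood directly above and below mir-30b (943 RPM), and mir-15a (282 RPM) and mir-296 (257 RPM) directly above and below mir-30c-1 (278 RPM).

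**Figure D1:**
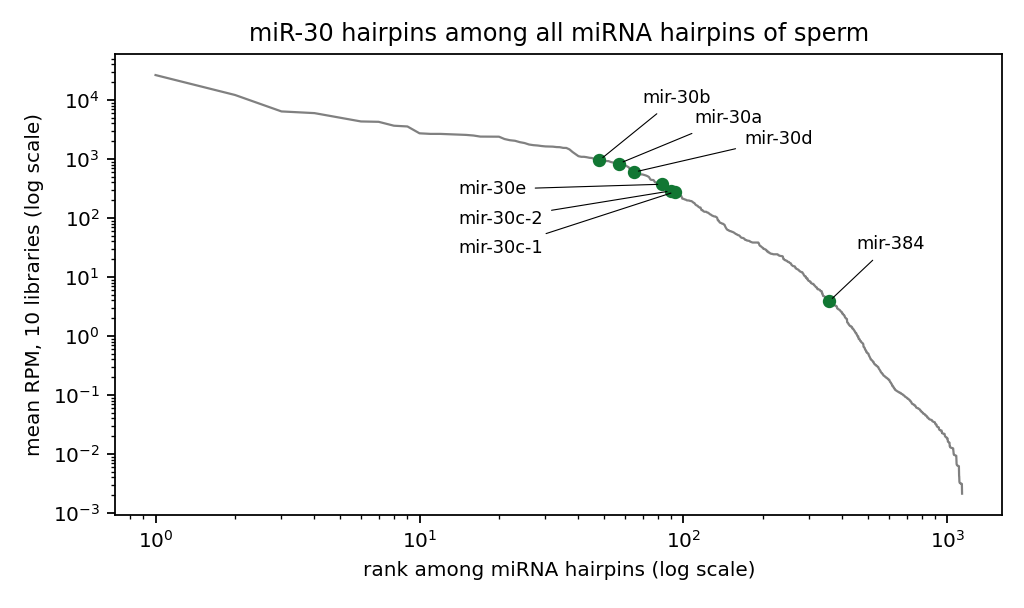
Mean RPM over the 10 libraries (y axis, log scale) of the 1136 miRNA hairpins against their rank (x axis, log scale), drawn as a line. The points mark the 6 miR-30 hairpins, which rank between 48 and 93, and mir-384, at rank 356.

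Within the family the order of levels was the same in most libraries. mir-30b exceeded mir-30a in 3 of 5 CD-F0 libraries, with a mean log2 ratio of 0.01 ± 0.30, and in 5 of 5 HFD-F0 libraries, with 0.29 ± 0.17 (SD, n = 5 each). mir-30a exceeded mir-30d in 10 of 10 libraries (log2 ratio 0.51 ± 0.17), and mir-30d exceeded mir-30e in 10 of 10 (0.64 ± 0.31). mir-30e exceeded mir-30c-2 in 5 of 5 CD-F0 libraries, with a log2 ratio of 0.76 ± 0.37, and in 4 of 5 HFD-F0 libraries, with 0.12 ± 0.19, which is within its spread. All of these mature RNAs have nearly the same length, but adapters are joined to different small RNAs with different efficiency, so the order is one of reads.

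A group of libraries stood apart in quality. The share of clean reads that matched the genome was 64.9%, 69.2% and 68.6% in CD-F0 replicates 1, 4 and 5, and between 73.3% and 75.2% in the other 7 libraries. All 3 libraries with a low share belong to the CD-F0 group, so this comparison is also given over the 7 libraries with a share above 70%, CD-F0 replicates 2 and 3 and the 5 HFD-F0 samples, a choice made after seeing the data.

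The diet comparison asked whether a father's high-fat diet is accompanied by other levels of these miRNAs in his sperm. All features were fitted together with edgeR's quasi-likelihood test and the p-values adjusted by the Benjamini-Hochberg method. None of the 6 hairpins met the study's rule, an unadjusted p of at most 0.05 with a log2 fold change of at least 1 in size, which 4.05% of the 814 features tested and 3.4% of the 529 miRNA hairpins tested met. None had an adjusted p under 0.05 either, as 0.123% of all features and 0% of the miRNA hairpins did in this fit. All 6 had a higher mean in the HFD-F0 group. The unadjusted p was 0.05 or less for 3 of them, mir-30b, mir-30c-1 and mir-30c-2, against 11.3% of all features in either direction, 10.6% of the miRNA hairpins in either direction, 6.51% of all features when only higher ones are counted, and 4.91% of the miRNA hairpins counted so. The mir-30c hairpins share a mature arm, so the 3 hairpins stand for 2 distinct mature miRNAs. The median log2 fold change was 0.31 over the 6 hairpins, −0.03 over all features tested and −0.07 over the miRNA hairpins tested.

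Over all 10 libraries, miR-30c showed the largest difference of the family. mir-30c-1 was measured at 165, 329, 184, 149.99 and 194 RPM in CD-F0 replicates 1 to 5 and at 348, 384, 301, 387 and 334 RPM in HFD-F0 replicates 1 to 5. CD-F0 replicate 2 stood with the HFD-F0 samples, and the other 4 CD-F0 samples lay below every HFD-F0 sample. The means were 204.3 ± 71.7 and 351 ± 36.1 RPM (SD, n = 5 each), a ratio of 1.72. The log2 fold change was 0.70 (SE 0.19), with p = 0.00364 (adjusted p = 0.205) by edgeR and p = 0.0159 (adjusted p = 0.287) by the exact permutation test of the RPM, two-sided. The smallest p that such an exact test allows with 5 against 5 samples is 0.00794. For the lowest sample, the 4722 reads of CD-F0 replicate 4, the 95% Wilson interval ran from 145.8 to 154.3 RPM, so the counting error was far smaller than the spread between samples.

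mir-30c-2 followed mir-30c-1 closely. It stood at 173, 342, 197, 157 and 202 RPM in CD-F0 replicates 1 to 5 and at 362, 395, 312, 396 and 340.4 RPM in HFD-F0 replicates 1 to 5. CD-F0 replicate 2 again lay inside the HFD-F0 range and the other 4 CD-F0 samples below it. The means were 214 ± 73.9 and 361 ± 36.2 RPM (SD, n = 5 each), with an edgeR log2 fold change of 0.67 (SE 0.19, p = 0.00422, adjusted p = 0.205) and p = 0.0238 in the exact permutation test, two-sided.

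The 2 mir-30c values are largely one measurement. Reads that fit several hairpins were divided among them in the deposited files. Of the 60 values of the 6 hairpins, 58 are not whole numbers, while their sum is whole (to within 0.03 reads) in 10 of 10 libraries. The difference between mir-30c-2 and mir-30c-1 was also whole in 10 of 10 libraries and came to 201 to 432 reads, only 1.009% to 3.42% of the reads of both. Added together, miR-30c stood at 337, 671, 380.0, 307 and 396 RPM in CD-F0 replicates 1 to 5 and at 709.9, 779, 613, 783 and 674 RPM in HFD-F0 replicates 1 to 5. With both hairpins fitted as 1 feature, the log2 fold change was 0.68.

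mir-30b, the most abundant member and of the same type as miR-30c, differed less. Its level was 624, 1115, 624, 594 and 904 RPM in CD-F0 replicates 1 to 5 and 1343, 1105, 1184, 988 and 947 RPM in HFD-F0 replicates 1 to 5. CD-F0 replicate 2 lay inside the HFD-F0 range and the other 4 CD-F0 samples below it. The means were 772 ± 229 and 1113 ± 159 RPM (SD, n = 5 each), with an edgeR log2 fold change of 0.43 (SE 0.17, p = 0.0247, adjusted p = 0.364) and p = 0.0397 in the exact permutation test, two-sided. Per miRNA read, the ratio of the means was 1.31 in place of 1.44, with an exact permutation p = 0.0714. The edgeR p rested on single libraries: it was 0.0640 without CD-F0 replicate 3, 0.0796 without CD-F0 replicate 4, 0.0646 without HFD-F0 replicate 2 and 0.0646 without HFD-F0 replicate 3 in the same edgeR test, and the exact permutation p stayed at or under 0.05 in only 3 of the 10 cases with 1 library left out.

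Over all 10 libraries, the hairpins of the other type had smaller differences. Their groups overlapped too, with fewer CD-F0 samples below every HFD-F0 sample than for mir-30b and mir-30c. mir-30a was measured at 813, 813, 607, 625 and 897 RPM in CD-F0 replicates 1 to 5 and at 1101, 931, 818, 957 and 758 RPM in HFD-F0 replicates 1 to 5. Of the HFD-F0 samples, 3 lay above all CD-F0 samples. Its log2 fold change was 0.16 (SE 0.16, p = 0.312, edgeR), and the exact permutation test of the RPM gave p = 0.0873, two-sided.

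The groups overlapped for mir-30d as well. It stood at 692, 579.9, 367, 351 and 665 RPM in CD-F0 replicates 1 to 5 and at 842, 693, 537, 706 and 527 RPM in HFD-F0 replicates 1 to 5. Of the CD-F0 samples, replicates 3 and 4 lay below every HFD-F0 sample and the other 3 within the HFD-F0 range. Its log2 fold change was 0.19 (SE 0.23, p = 0.419, edgeR), with p = 0.214 in the exact permutation test, two-sided. With 1 library left out, the log2 fold change ranged from 0.07 to 0.36.

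mir-30e had the smallest difference of the 6 hairpins. Its level was 314, 387, 307, 329 and 412 RPM in CD-F0 replicates 1 to 5 and 454, 364, 385, 414 and 349.5 RPM in HFD-F0 replicates 1 to 5. The groups overlapped, and the log2 fold change was 0.06 (SE 0.13, p = 0.664, edgeR), with p = 0.175 in the exact permutation test, two-sided. Since miR-30a-5p and miR-30e-5p differ by 1 base and the alignment allowed 1 mismatch, reads may have been shared between these hairpins, and their values are uncertain to that extent.

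Over the 7 libraries with a genome-matched share above 70%, the order of the differences was another. The log2 fold change by edgeR was 0.45 for mir-30c-1, 0.42 for mir-30c-2 and 0.34 for mir-30b, and came to 0.34 for mir-30a, 0.46 for mir-30d and 0.16 for mir-30e. None of the 6 hairpins then passed the unadjusted threshold of 0.05. The exact permutation test of the RPM gave p = 0.0952 for mir-30c-1, p = 0.143 for mir-30c-2 and p = 0.333 for mir-30b, two-sided, where the smallest p with 2 against 5 samples is 0.0476. These values depend on CD-F0 replicate 2, which is 1 of the 2 CD-F0 libraries left and stood with the HFD-F0 samples in miR-30c, at 671 RPM for both hairpins added. The other, CD-F0 replicate 3, had a genome-matched share of 75.2%. It stood at 380.0 RPM, below every HFD-F0 sample and within the 307 to 396 RPM of the 3 low-match libraries. Its mir-30b was below every HFD-F0 sample too. The 2 CD-F0 libraries left thus differ from each other, and the part of the genome match in these differences was not tested. As the low-match libraries are all from the CD-F0 group, diet and match cannot be told apart in them.

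**Figure D2:**
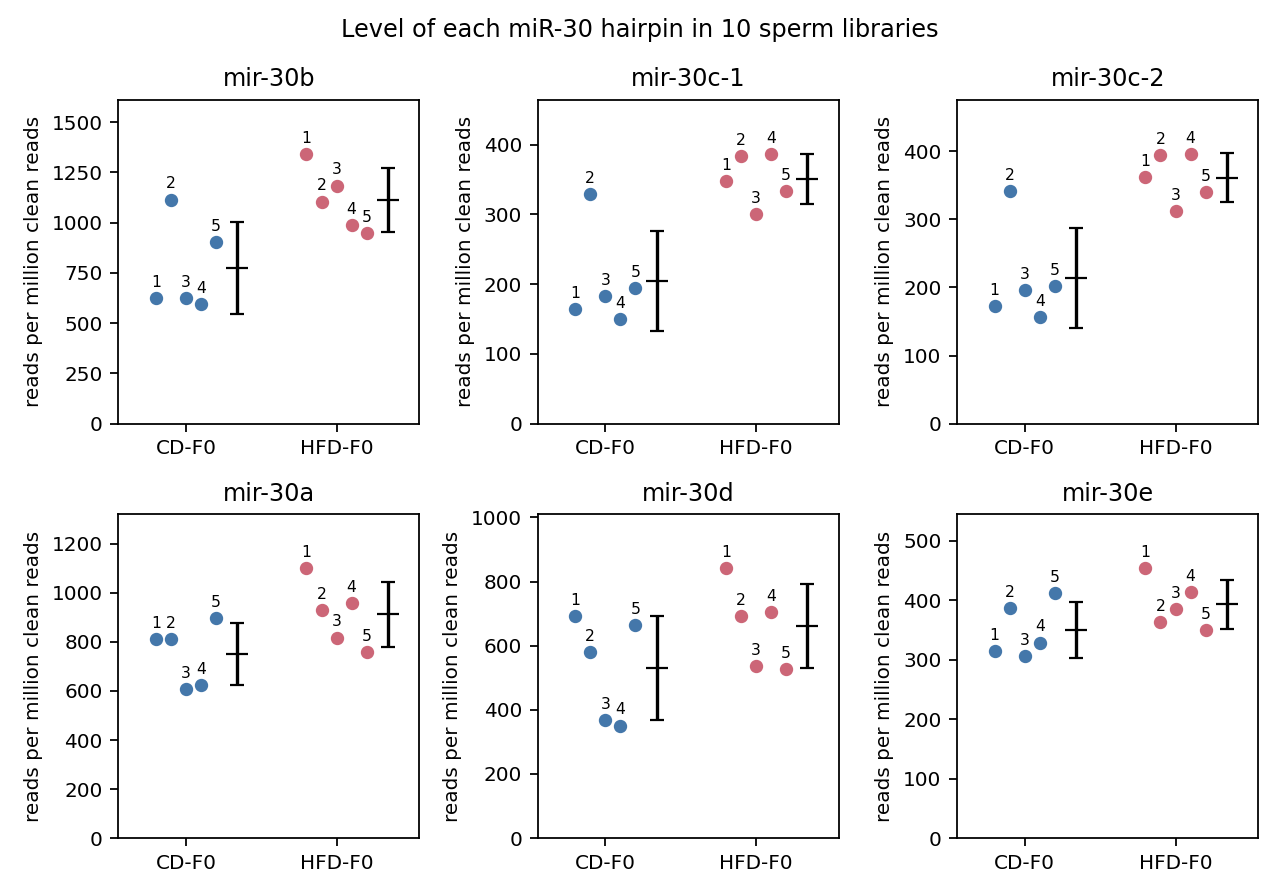
RPM (y axis, from 0) of each miR-30 hairpin in the CD-F0 (blue) and HFD-F0 (red) libraries. Each point is 1 library with its replicate number, and the black bar shows the mean ± SD. For both mir-30c hairpins and mir-30b, 4 of 5 CD-F0 points lie below all HFD-F0 points and CD-F0 replicate 2 does not.

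**Figure D3:**
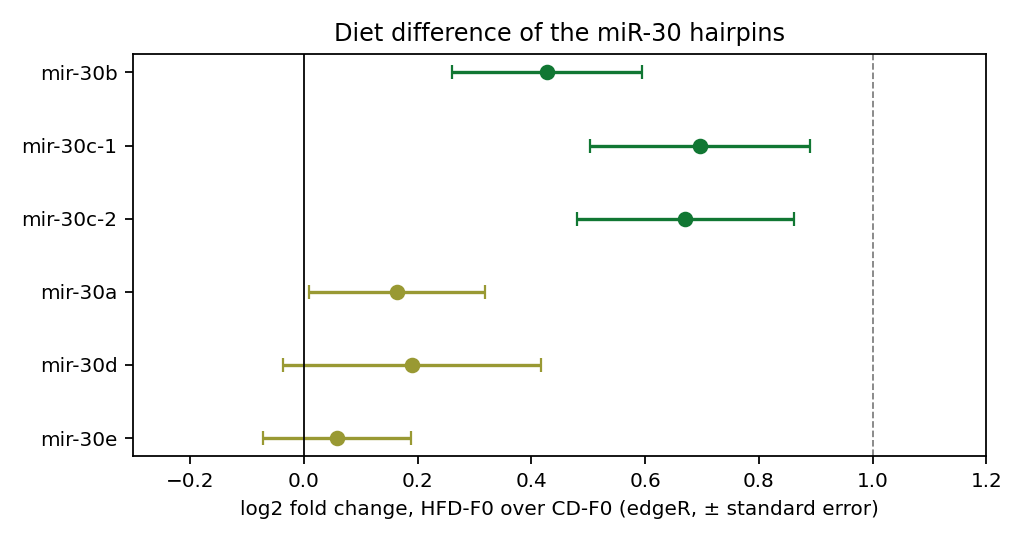
Log2 fold change, HFD-F0 over CD-F0, from edgeR (x axis), with its standard error, for each hairpin, with mir-30b and mir-30c in dark green and mir-30a, mir-30d and mir-30e in olive. All 6 values are above 0, between 0.06 and 0.70, and none reaches the dashed line at 1.

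The types were also set against each other within each genomic cluster, as the ratio of the reads of its 2 hairpins in a library. In the cluster on chromosome 4, the log2 ratio of mir-30c-1 over mir-30e was −0.93, −0.23, −0.74, −1.13 and −1.08 in CD-F0 replicates 1 to 5 and −0.38, 0.08, −0.35, −0.10 and −0.07 in HFD-F0 replicates 1 to 5. CD-F0 replicate 2 lay among the HFD-F0 samples, and the other 4 CD-F0 samples lay below all of them. The mean ratio was −0.82 ± 0.36 in the CD-F0 group and −0.16 ± 0.20 in the HFD-F0 group (SD, n = 5 each). In the cluster on chromosome 1, the ratio of mir-30c-2 over mir-30a was −1.85 ± 0.41 and −1.33 ± 0.17 (SD, n = 5 each), and again only CD-F0 replicate 2 (−1.25) of the CD-F0 samples lay within the HFD-F0 range. As miR-30c reads were divided about evenly between their hairpins, these ratios hold the sum of both clusters' miR-30c and do not measure the output of 1 cluster.

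The cluster on chromosome 15 showed a smaller difference. Its log2 ratio of mir-30b over mir-30d was 0.55 ± 0.43 in the CD-F0 group and 0.76 ± 0.25 in the HFD-F0 group (SD, n = 5 each), with overlapping groups. CD-F0 replicate 1 stood lowest at −0.15, and without it the difference of the means shrank from 0.21 to 0.04. Of the ratios between members of the same type from different clusters, mir-30d over mir-30a was −0.54 ± 0.24 and −0.48 ± 0.09, and mir-30e over mir-30a −1.10 ± 0.17 and −1.21 ± 0.11, in the CD-F0 and HFD-F0 groups. The ratio of both mir-30c hairpins over mir-30b was −0.90 ± 0.19 and −0.64 ± 0.28, a difference of 0.26. The low-match libraries, CD-F0 replicates 1, 4 and 5, had the lowest ratios of mir-30c-1 over mir-30e and of mir-30c-2 over mir-30a. CD-F0 replicate 3 followed (−0.74 and −1.63) and also lay below every HFD-F0 sample in both. For mir-30c-2 over mir-30a it did so only just, as HFD-F0 replicate 1 stood at −1.61. Over the 7 libraries with a genome-matched share above 70%, the difference of the means was 0.32 in place of 0.66 for mir-30c-1 over mir-30e, 0.11 in place of 0.52 for mir-30c-2 over mir-30a, and −0.09 in place of 0.21 for mir-30b over mir-30d. For miR-30c over mir-30b, the mean of the 2 CD-F0 libraries left was −0.72, beside −0.64 in the HFD-F0 group. These means again hold CD-F0 replicate 2. These ratios compare members chosen with earlier results known and were given no test.

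**Figure D4:**
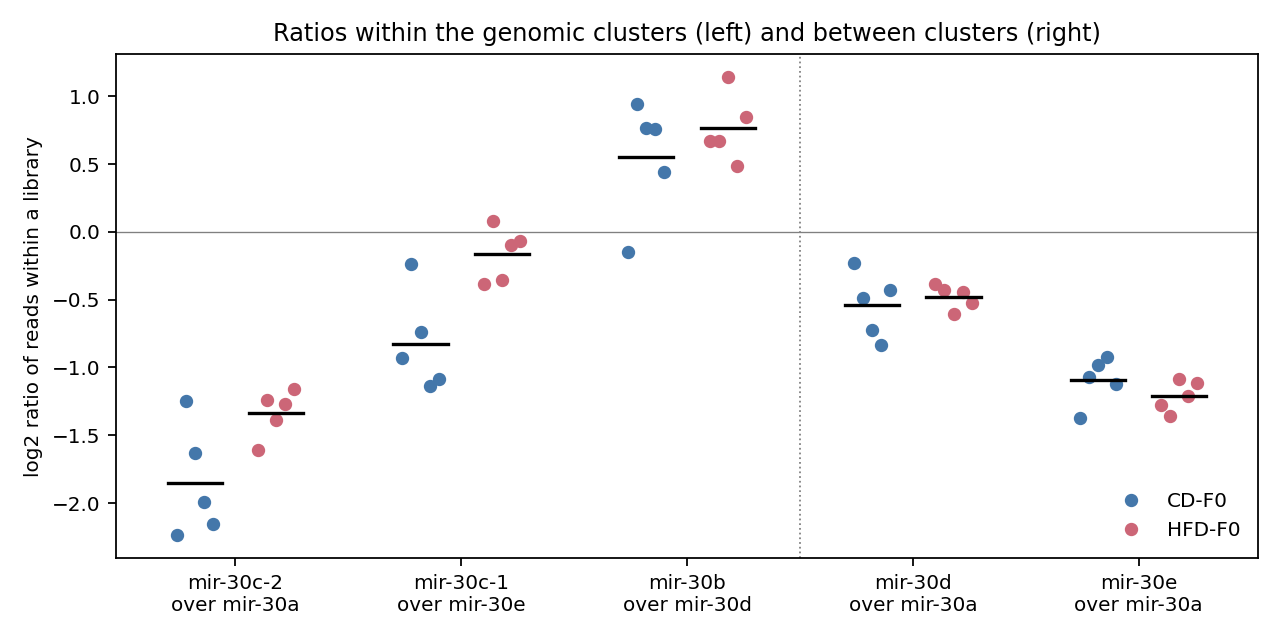
Log2 ratio of the reads of 2 hairpins within a library (y axis) for the 3 genomic clusters (left of the dotted line) and for 2 pairs of like type from different clusters (right). Each point is 1 library, blue for CD-F0 and red for HFD-F0, and the bars are the group means. The ratio of mir-30c-1 over mir-30e has its mean at −0.82 in the CD-F0 and −0.16 in the HFD-F0 group.

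The same reads can be given as the make-up of the family. mir-30b and mir-30c together held 34.6%, 50.1%, 43.9%, 40.8% and 39.7% of the family's reads in CD-F0 replicates 1 to 5 and 46.1%, 48.7%, 50.8%, 46.0% and 49.8% in HFD-F0 replicates 1 to 5. The share was more even among the HFD-F0 samples, at 48.3% ± 2.15 against 41.8% ± 5.72 (SD, n = 5 each). CD-F0 replicates 1, 4 and 5, with the low genome-matched share, had the lowest values, and CD-F0 replicate 3, without it, also lay below every HFD-F0 sample. The share of miR-30c alone was 14.7% ± 2.95 in the CD-F0 and 18.9% ± 2.12 in the HFD-F0 group, that of mir-30e 12.6% ± 1.64 and 10.4% ± 0.616, and that of mir-30a 26.9% ± 2.49 and 24.0% ± 0.805. Over the 7 libraries with a genome-matched share above 70%, the share of mir-30b and mir-30c was 1.27 percentage points higher in HFD-F0, in place of 6.46. That of miR-30c was 1.17 points higher, in place of 4.18. These 7 libraries keep CD-F0 replicate 2 as 1 of 2 CD-F0 libraries. The shares are parts of 1 sum, so they do not move independently.

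**Figure D5:**
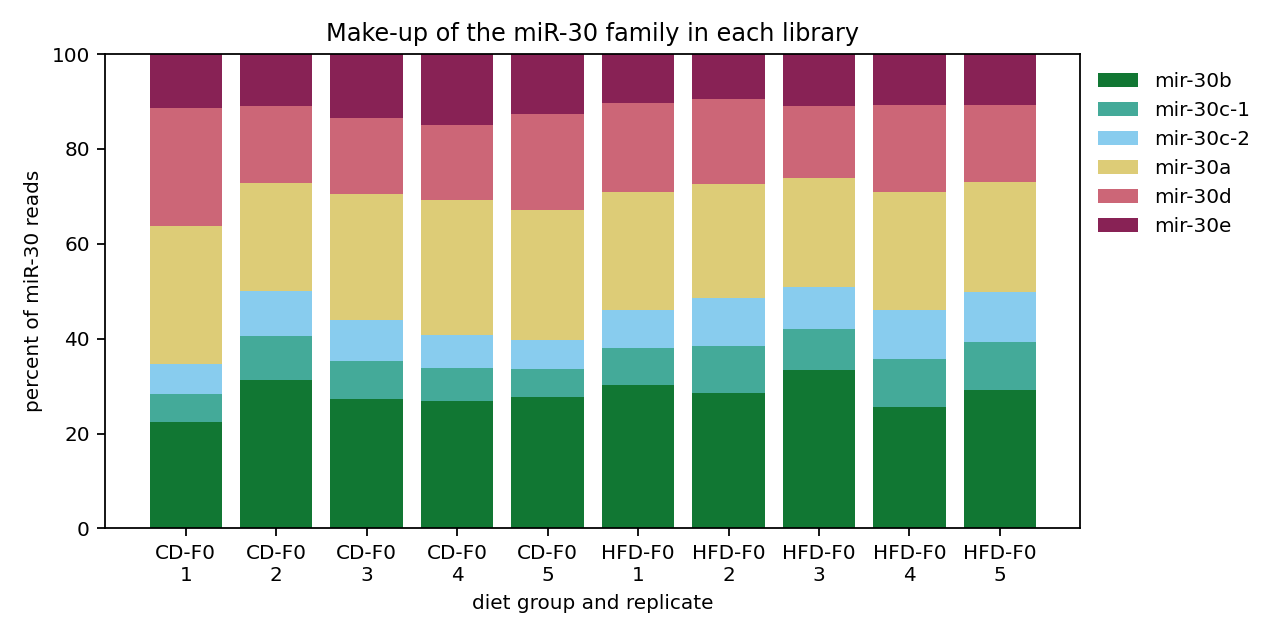
Percent of the family's reads (y axis) taken by each hairpin in each of the 10 libraries (x axis). The lower 3 layers are mir-30b, mir-30c-1 and mir-30c-2, which together reach 46.0% or more in every HFD-F0 library and in 1 CD-F0 library, replicate 2.

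The family's sum was compared by more than one measure of library size. The RPM ratio of HFD-F0 over CD-F0 was 1.34 for the sum of the 6 hairpins and 1.23 as a share of miRNA reads, because miRNAs took 16.9% ± 1.02 of the clean reads in the CD-F0 and 18.7% ± 3.23 in the HFD-F0 group (SD, n = 5 each). The sum stood at 2781, 3565, 2285, 2206 and 3274 RPM in CD-F0 replicates 1 to 5 and at 4450.1, 3871, 3537, 3849 and 3255 RPM in HFD-F0 replicates 1 to 5. CD-F0 replicates 2 and 5 lay within the HFD-F0 range and the other 3 below it.

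Other hairpins with a related name or seed were low. mir-384, whose 5′ arm has the same seed, ranked 356. The family's summed mean was 862 times its mean, or 2357 times without CD-F0 replicate 4. It stood at 25.3 RPM in CD-F0 replicate 4 and between 0.440 and 2.50 RPM in the other 9 libraries. Its log2 fold change was −2.25 (SE 0.94), with p = 0.0338 (adjusted p = 0.421) by edgeR and p = 0.540 by the exact permutation test of the RPM, two-sided. By edgeR, mir-384 thus met the study's rule, as 4.05% of all features and 3.4% of the miRNA hairpins tested did. This difference rested on CD-F0 replicate 4: without that library, the log2 fold change was −0.10 and the CD-F0 mean 1.43 ± 0.682 RPM (SD, n = 4). mir-30f, annotated opposite mir-30e on the other strand, was listed with 6 reads in CD-F0 replicate 2, 4 in CD-F0 replicate 4 and 8 in HFD-F0 replicate 4, and was at 0 in the other 7 libraries. Its mature sequence, miR-30f, is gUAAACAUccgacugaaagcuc, with bases 2 to 8 in capitals, and so has another seed.

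The hairpins outside the family whose levels ran most parallel to its sum were mir-103-2, mir-103-1, mir-223, mir-672 and let-7a-1. Likeness was measured as the SD over the 10 libraries of the log2 ratio to the family's sum, among 284 hairpins with a mean of at least 10 RPM. It was 0.20 for mir-103-2, 0.20 for mir-103-1 and 0.22 for each of the next 3, against a median of 0.41 over all 284. Measured the same way against the sum of the other 5 members, mir-30a came to 0.17 and mir-30c-1, the least alike, to 0.33. All libraries are normalized to the same total, so these values describe likeness and were given no test.

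Among these, mir-223, known from myeloid blood cells, and let-7a-1 did not overlap between the diets. Of all features 3.81%, and of the miRNA hairpins tested 3.21%, did not, but these hairpins were chosen for following a sum that was itself higher in the HFD-F0 group, so nothing is read from the comparison. mir-223 stood between 342 and 377 RPM in the CD-F0 and between 448.8 and 584 RPM in the HFD-F0 group, with a log2 fold change of 0.43 (SE 0.13, adjusted p = 0.240, edgeR). let-7a-1 stood between 3112 and 4170.0 RPM and between 4313 and 5662 RPM, with a log2 fold change of 0.37 (SE 0.13, adjusted p = 0.313, edgeR).

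The let-7 family, another large family of conserved miRNAs, gives a scale for these differences. Of a list of 12 of its hairpins, mir-98 included, 6 passed edgeR's unadjusted threshold of 0.05, all with a higher level in the HFD-F0 group, beside 6.51% of all features and 4.91% of the miRNA hairpins tested. These were let-7a-1, let-7a-2, let-7d, let-7e, let-7f-1 and let-7f-2, and as the let-7a hairpins share a mature arm and so do the let-7f hairpins, they stand for 4 mature miRNAs. The median log2 fold change of the list was 0.30, and its summed RPM had a ratio of 1.34. By library, this sum was 25642.5, 31653, 32708, 26774 and 27899.5 RPM in CD-F0 replicates 1 to 5. It was 43677.5, 44293, 34851, 38054 and 32385 RPM in HFD-F0 replicates 1 to 5. The low-match libraries, CD-F0 replicates 1, 4 and 5, had the lowest sums here too. The list leaves out let-7j (log2 fold change −0.01, SE 0.14) and let-7k (0.04, SE 0.28). Of 15 hairpins tied to fat cell differentiation, 2 passed the same threshold, both for miR-365, with log2 fold changes of 1.30 and 1.18, and the median was 0.09. The count is near the share in either direction, 11.3% of all features and 10.6% of the miRNA hairpins tested. When only higher ones are counted, these shares were 6.51% and 4.91%. Both miR-365 hairpins also met the study's rule, as 4.05% of all features and 3.4% of the miRNA hairpins tested did, but neither had an adjusted p under 0.05. The most abundant of that list were mir-143 (log2 fold change 0.00) and mir-26a-2 (−0.13).

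The sample type was checked with hairpins known from male germ cells. All 11 were listed in all libraries, led by mir-449a and mir-34b, and their summed level was 14324 ± 1149 RPM in the CD-F0 and 13109.6 ± 3276 RPM in the HFD-F0 group (SD, n = 5 each). Of these 11, 1 passed edgeR's unadjusted threshold of 0.05, mir-470, with a log2 fold change of −0.53, and the median was −0.02. This count, too, is near the 11.3% of all features.

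Hairpins known from other cells were present too. The 6 epithelial hairpins, led by mir-429 and mir-200a, were all above 0 in all libraries, with a summed level of 5519 ± 1194 RPM and 6889.7 ± 1574 RPM in the CD-F0 and HFD-F0 groups (SD, n = 5 each). None of the 6 passed the unadjusted threshold, which 11.3% of all features passed, so that a count of 0 in so short a list says little, and the median log2 fold change was 0.28. Their sum was 6643, 5412, 3969, 4817 and 6756 RPM in CD-F0 replicates 1 to 5 and 9463, 6351, 5520.3, 7229 and 5886 RPM in HFD-F0 replicates 1 to 5.

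Of the 6 muscle hairpins, all above 0 in all libraries, 1 passed the unadjusted threshold (11.3% of all features did), mir-145a, with a log2 fold change of 1.06 (SE 0.38, adjusted p = 0.333, edgeR). mir-145a also met the study's rule, as 4.05% of all features and 3.4% of the miRNA hairpins tested did. In the HFD-F0 group its level had a median of 868 RPM and a maximum of 2636 RPM. The median log2 fold change of the 6 muscle hairpins was −0.04. Their sum, of which mir-143 made up 94.9%, was 26111 ± 3613 RPM and 29202 ± 8232 RPM (SD, n = 5 each). By library, it was 29447, 23429.7, 29352, 21352 and 26974 RPM in CD-F0 replicates 1 to 5 and 36524.5, 30714, 27744, 35153 and 15875.5 RPM in HFD-F0 replicates 1 to 5. Of the 7 blood and immune hairpins, led by mir-146a and mir-451a, 1 passed the unadjusted threshold, mir-223, again near the 11.3% of all features, and their sum was 4518 ± 802 RPM and 4800.3 ± 1139.7 RPM (SD, n = 5 each), with a median log2 fold change of 0.19. By library, that sum was 5206, 4077, 5534, 3686 and 4089 RPM in the CD-F0 and 5589.6, 6033, 5082, 4048 and 3249 RPM in the HFD-F0 group. Among the HFD-F0 samples, replicate 1 was highest in the germ cell, epithelial and muscle sums and in the miR-30 sum, and replicate 2 in the blood and immune sum. HFD-F0 replicate 1 also had the largest miRNA share of clean reads, 23.5%, beside 14.5% to 19.0% in the other HFD-F0 libraries. Of its miRNA reads the miR-30 family took 1.89%, the lowest such share in the HFD-F0 group. In such bulk samples, fewer cells of a type and less RNA per cell cannot be told apart. The part of these other cells in the miR-30 differences was not tested.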

How the data were processed

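RNA of 18 to 30 nt was sequenced from 10 sperm samples. Clean reads were aligned by the authors with Bowtie, through SPORTS, allowing 1 mismatch. The labels give the mm10 build. The values they deposited are estimated counts for each class and sub-class of RNA, without normalization, and reads with several possible sub-classes are divided between these. Whether reads with the same molecular identifier were collapsed is not given in the sources used here, so intervals cover counting error only.

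Genome-matched and unmatched reads of a hairpin were added, with absent entries taken as 0. RPM were computed per 1000000 clean reads. Counts were rounded and all features fitted together in edgeR 4.0.16 (R 4.3.3; filterByExpr, TMM, quasi-likelihood test, Benjamini-Hochberg over 814 features), with samples grouped by the diet in the labels. Differences in RPM were put to two-sided exact permutation tests that enumerate the 252 divisions of the samples, in NumPy 2.4.6, and adjusted over the same features. Wilson intervals were computed in SciPy 1.17.1. Sums, shares and ratios of members were not tested. A planned test of unmatched shares gave no value, since no hairpin had enough such reads (0 met the minimum of 100). The 45 pairs of libraries differed beyond sampling noise (chi-square per degree of freedom at least 593). Scripts were tested on simulated data.

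The members and lists were chosen with earlier results of these data known. Named hairpins were the members, those with the same seed or a mir-30 name, the 5 most abundant, the neighbours in rank, the 5 most parallel and the leading 2 of each list; mir-470, mir-145a, mir-223 and the mir-365 hairpins were named because they were the list members past the unadjusted threshold. Alternatives were DESeq2 1.42.0, other scalings, filters and tests, single libraries left out, the 3 libraries of low genome match left out (added after seeing the data) and pairing by replicate number.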

Additional observations from a re-analysis of the deposited data

Results flagged for a closer look

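Each of 58 sets of 5 values within a diet group was checked for a sample far from the other 4. A set was the level of a hairpin, or a sum, share or log2 ratio of hairpins, so many sets hold the same reads. The gap to the nearest neighbour had to be above 0.71 of the set's range, and 5 sets held such a sample. Chance gives about 1 in 20. CD-F0 replicate 2 stood apart in mir-30c-1 at 329 RPM (next highest 194), in mir-30c-2 at 342 RPM (next 202) and in their sum at 671 RPM (next 396), which are largely the same reads. CD-F0 replicate 4 stood apart in mir-384 at 25.3 RPM (next 2.27). HFD-F0 replicate 4 stood apart in mir-30f at 0.250 RPM, with 0 in the other HFD-F0 libraries, a value of 8 reads.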

How the results depend on the processing

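The log2 fold changes of the 6 hairpins stayed above 0 under all alternatives tried, and none met the study's rule or had an adjusted p under 0.05 in any of them. Adjusted p ranged from 0.0595 to 0.664 for both mir-30c hairpins and from 0.269 to 0.696 for mir-30b. The 7 libraries with a genome-matched share above 70%, an alternative chosen after seeing the data that keeps 2 CD-F0 libraries, replicate 2 among them, gave 0 of 6 hairpins past the unadjusted threshold, in place of 3: edgeR gave 0.34 for mir-30b, 0.45 for mir-30c-1, 0.42 for mir-30c-2 and 0.24 for mir-384 (reversed), RPM ratios were 1.28, 1.37 and 1.34 for the first 3 (exact permutation p = 0.333, 0.0952 and 0.143), the share of mir-30b and mir-30c was 1.27 percentage points higher in HFD-F0 in place of 6.46 and that of mir-30c 1.17 in place of 4.18, and the cluster ratios differed by 0.11 for mir-30c-2 over mir-30a, 0.32 for mir-30c-1 over mir-30e and −0.09 for mir-30b over mir-30d (0.21 over all libraries). Over all features, 1 had an adjusted p under 0.05, against 15 by DESeq2, 13 by edgeR's exact test and 5 with clean reads as library size. Scaling by clean reads without TMM moved the median of all features by 0.11 on the log2 scale, and mir-30c-1 then came to 0.78. The features meeting the study's rule numbered 33, but 93 with no filter on low counts and 21 to 50 with 1 library left out; a fit on miRNA hairpins only gave 12, where 18 of the 33 were miRNA hairpins; past the unadjusted threshold alone they numbered 92, but 154 with no filter and 62 to 123 with 1 library left out. Leaving out 1 library gave log2 fold changes of 0.36 to 0.56 for mir-30b, 0.61 to 0.89 for mir-30c-1 and 0.59 to 0.86 for mir-30c-2, RPM ratios of 1.36 to 1.62 for mir-30b and of 1.153 to 1.28 for mir-30a (1.27 and p = 0.0397, exact permutation test, without HFD-F0 replicate 5), and −2.56 to −0.10 on the log2 scale for mir-384. For the other type, the log2 fold changes with 1 library left out were 0.09 to 0.24 for mir-30a, 0.07 to 0.36 for mir-30d and 0.006 to 0.12 for mir-30e. Per miRNA read, the ratio of mir-30b was 1.31 (p = 0.0714, exact permutation test). The replicate numbers are not said in the labels to pair the samples, and their pairing was not tested (correlations of same-numbered deviations −0.20 to 0.34). With them as a replicate block, edgeR gave 0.45 for mir-30b, 0.72 for mir-30c-1, 0.70 for mir-30c-2 and −0.99 for mir-384 (p = 0.120), with 24 features meeting the rule, and exact sign-flip permutation of the pairs gave p = 0.125 for mir-30b (ratio 1.44) and p = 0.0625, the smallest that 5 pairs allow, for mir-30c-1 (1.72) and mir-30c-2 (1.69). The causes of these shifts were not tested. Depth limits mir-30f and mir-384, not the 6 hairpins, each of which had at least 4722 reads in every library.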
